A study of Homo sapiens with 6 samples.

Results

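The gene set examined here holds 31 genes of protein folding in the endoplasmic reticulum (ER) and of the unfolded protein response, chosen by name from the 33542 genes of the deposited count table, where all 31 were found. They encode ER chaperones and their cofactors, disulfide and proline isomerases, secreted stress proteins, the stress sensors with the transcription factor XBP1, enzymes of ER-associated degradation, and components of the translocon and of the COPII coat. They were measured by RNA sequencing in T24, an established human urinary bladder carcinoma cell line. The siTRAIP group was T24 transfected with a small interfering RNA against TRAIP, an E3 ubiquitin ligase gene, and the siNC group was T24 transfected with a control small interfering RNA. Both groups had 3 libraries, were transfected with Lipofectamine and were grown in RPMI medium with fetal bovine serum and antibiotics. The deposited columns name the siTRAIP libraries siTR2, and no other reagent against TRAIP was analysed here. The title of the study ties TRAIP to ubiquitination of MYC.

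The ER folds secreted and membrane proteins with the help of Hsp70- and Hsp90-type chaperones, lectin chaperones that bind glycoproteins, and isomerases that form and reshuffle disulfide bonds. When unfolded protein accumulates, the sensors IRE1 (gene ERN1), PERK (gene EIF2AK3) and ATF6 are activated. IRE1 splices XBP1 mRNA into the form that encodes an active transcription factor, PERK phosphorylates a translation initiation factor and favours translation of ATF4, and ATF6 is cut to release a transcription factor. Targets of XBP1 and ATF6 include the chaperone genes themselves and the genes of ER-associated degradation, which returns misfolded proteins to the cytosol for the proteasome.

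Many chaperone promoters carry an ER stress response element (ERSE), a CCAAT motif followed by 9 bases and CCACG, or the shorter ERSE-II, an ATTGG motif followed by 1 base and CCACG. Promoter windows of RefSeq genes (GRCh38.p14, 250 bases before to 50 after an annotated start) were searched on both strands for these letters. A window was found for 28 of the 31 genes, the exceptions being SEC24D, DERL1 and PDIA3. ERSE was present in windows of 7 of these 28 genes (25%), against 25 of 27305 genes with a window (0.0916%, or 0.0769% of 35116 windows). ERSE-II was present in 3 of 28 (10.7%), against 19 of 27305 genes (0.0696%, or 0.0541% of windows). No gene of the set held both. A match is a description of the letters in this window and not a measured binding site. The matches are printed because the fold changes below are set beside them. Each is written in the direction of transcription with 10 bases on either side, the element in capitals; an element on the opposite strand reads CGTGG first. HSP90B1 and HYOU1 held a pair of matches.
HSP90B1 (ERSE, chr12:103930206-103930244, plus strand): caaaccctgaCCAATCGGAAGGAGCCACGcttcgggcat
HSP90B1 (ERSE, chr12:103930311-103930349, plus strand): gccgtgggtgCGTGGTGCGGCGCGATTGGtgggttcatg
CANX (ERSE, chr5:179698768-179698806, plus strand): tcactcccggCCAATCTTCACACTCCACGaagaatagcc
CALR (ERSE, chr19:12938374-12938412, plus strand): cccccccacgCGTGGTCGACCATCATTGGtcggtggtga
PDIA6 (ERSE, chr2:10812843-10812881, minus strand): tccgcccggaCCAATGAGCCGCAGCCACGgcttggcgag
XBP1 (ERSE, chr22:28800593-28800631, minus strand): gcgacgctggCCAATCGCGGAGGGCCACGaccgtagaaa
CRELD2 (ERSE, chr22:49918544-49918582, plus strand): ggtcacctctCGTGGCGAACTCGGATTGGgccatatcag
HYOU1 (ERSE-II, chr11:119057264-119057294, minus strand): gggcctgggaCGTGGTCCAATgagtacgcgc
HYOU1 (ERSE-II, chr11:119057370-119057400, minus strand): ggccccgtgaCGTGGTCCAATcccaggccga
HERPUD1 (ERSE-II, chr16:56932015-56932045, plus strand): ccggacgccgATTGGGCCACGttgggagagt
SDF2L1 (ERSE-II, chr22:21642104-21642134, plus strand): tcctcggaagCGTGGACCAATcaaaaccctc

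The whole window is given for HSPA5, the main ER Hsp70 gene, whose ERSE began 66 bases before the start, and for DNAJB9, which held neither element. In the HSPA5 window ERSE is in capitals. In the DNAJB9 window the separate CCACG and CCAAT motifs of either strand are in capitals. CCACG alone was present in 42.1% and CCAAT alone in 39.7% of all genes with a window.
HSPA5 (chr9:125241294-125241593, minus strand): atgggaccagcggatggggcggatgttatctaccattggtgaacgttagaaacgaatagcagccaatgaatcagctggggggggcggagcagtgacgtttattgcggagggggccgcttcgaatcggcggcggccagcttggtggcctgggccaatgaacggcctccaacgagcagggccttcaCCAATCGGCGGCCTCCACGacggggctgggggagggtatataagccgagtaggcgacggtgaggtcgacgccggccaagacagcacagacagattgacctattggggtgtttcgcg
DNAJB9 (chr7:108569624-108569923, plus strand): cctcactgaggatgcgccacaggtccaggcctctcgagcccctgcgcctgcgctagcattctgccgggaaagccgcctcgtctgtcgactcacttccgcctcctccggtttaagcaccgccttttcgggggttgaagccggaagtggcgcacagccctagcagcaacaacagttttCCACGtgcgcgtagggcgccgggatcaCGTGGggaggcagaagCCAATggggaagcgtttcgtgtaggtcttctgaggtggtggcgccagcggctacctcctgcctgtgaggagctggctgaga

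Total gene counts ran from 39111793 to 70439496 in siTRAIP libraries and from 54818483 to 58066330 in siNC libraries. TRAIP mRNA averaged 12.9 ± 1.61 CPM (read counts scaled to a common library total) in siTRAIP and 27.8 ± 1.04 CPM in siNC (SD, n = 3 each), with a log2 fold change of -1.11 (adjusted p = 6.74e-10 by edgeR, SE 0.07). Pairs with siTRAIP replicate 3, the deepest library, had a chi-square divided by its degrees of freedom of 16.8 and 17.1. The remaining within-group pairs had 3.23 to 7.42. This measure grows with depth. It was 7.42 for siNC replicates 1 and 3 (56041110 and 58066330 gene counts). For siTRAIP replicates 1 and 3 (39111793 and 70439496 gene counts) it was 16.8. What set siTRAIP replicate 3 apart was not tested. Without siTRAIP replicate 3, edgeR called 2622 genes in all, against 2393 with every library. Correlations of log2 CPM did not set siTRAIP replicate 3 apart, at 0.99151 and 0.99237 for its pairs and 0.99199 for siTRAIP replicates 1 and 2. Of 13 epithelial and urothelial markers 12 were found and 8 tested; they summed to 3192 to 3485 CPM in siTRAIP libraries and 3497 to 3559 CPM in siNC libraries, and KRT7 was the 1 called, as lower (1152 CPM in siTRAIP, 1308 CPM in siNC, edgeR adjusted p = 0.00375). The part of this difference in the results was not tested. The keratin genes KRT7, KRT8 and KRT18 were at 514 to 1596 CPM in siTRAIP and 497 to 1686 CPM in siNC. The urothelial marker UPK3A, the basal markers KRT5 and TP63 and the adhesion gene CDH1 stayed under 0.05 CPM in the mean of either group. GATA3 stayed under 0.3 CPM and UPK2 under 0.9 CPM. KRT19 (20.7 CPM in both groups), PPARG (18.9 CPM in siTRAIP, 18.4 CPM in siNC) and EPCAM (1.66 and 1.3 CPM) were higher. The mesenchymal markers VIM, CDH2, FN1 and ZEB1 summed to 1417 to 1484 CPM in siTRAIP libraries and 1452 to 1490 CPM in siNC libraries. The leukocyte marker PTPRC and the endothelial markers PECAM1 and CDH5 did not pass the expression filter. The fibroblast markers COL1A1 (2.07 CPM in siTRAIP, 1.08 CPM in siNC) and PDGFRB (0.138 and 0.137 CPM) passed it and were not called. Whether replicate libraries stem from separate cultures is not stated, so p-values reflect only how far these samples scatter, and that scatter may be technical. In bulk RNA, fewer cells expressing a gene and less of its RNA per cell cannot be told apart.

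Of the 31 genes, 3 rose and 3 fell in siTRAIP at an edgeR adjusted p of 0.05, 6 called in all (19.4%). Of all 18685 genes tested, 12.8% were called, 7.47% as higher and 5.34% as lower. HSP90B1, HSPA5 and ATF6 rose, by 9.74% to 15.5%. ERN1, DNAJB9 and SYVN1 fell, by 10.1% to 32.2%. The median log2 fold change of the 31 genes was -0.004, against -0.002 over all genes tested, and fitted values were above 0 for 15 and below 0 for 16. CPM of the groups did not overlap for 12 of the 31 genes, against 29.1% of all genes tested. All 31 genes passed the expression filter, and the lowest count of any of them was 231, for ERN1 in siTRAIP replicate 1.

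**Figure D1:**
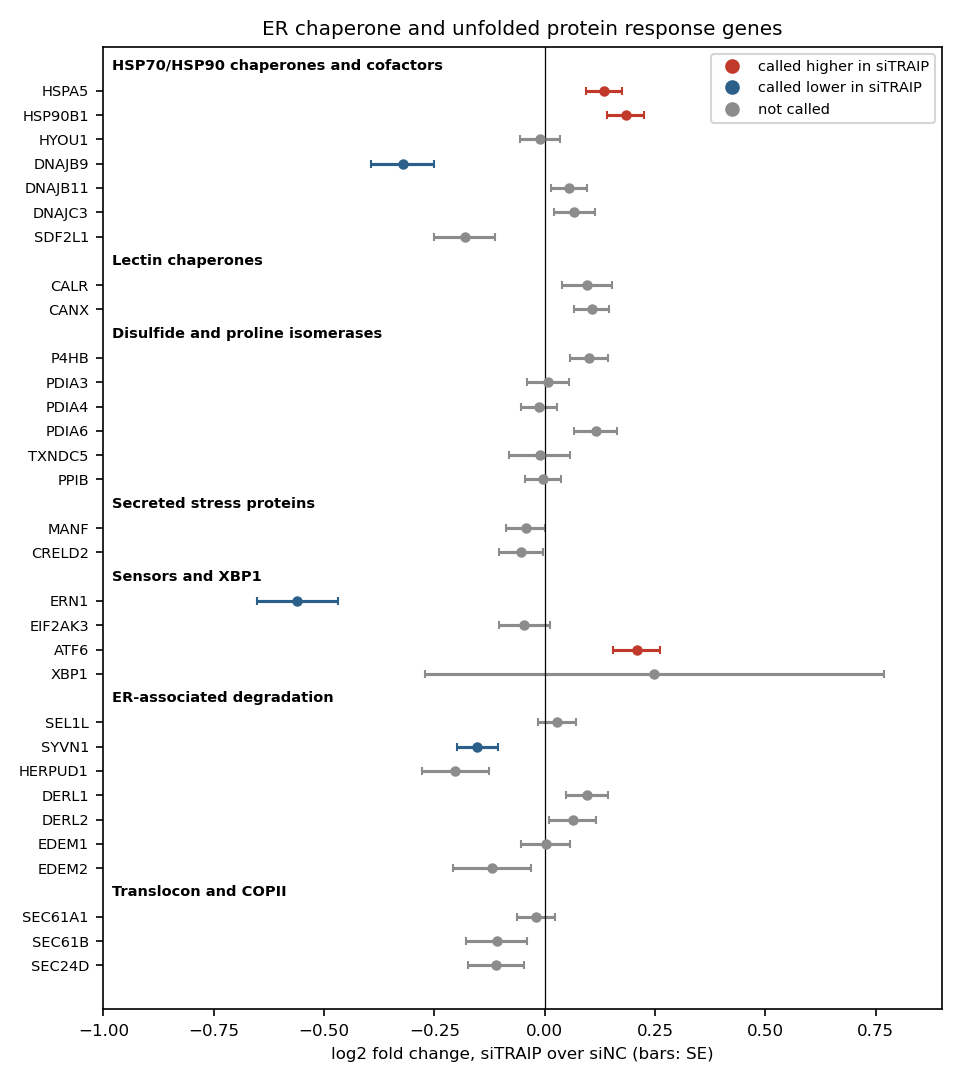
Log2 fold change (siTRAIP over siNC, edgeR) of the 31 genes, grouped by role; points are fitted values and bars their SE. HSP90B1, HSPA5 and ATF6 lie to the right as called rises, ERN1, DNAJB9 and SYVN1 to the left as called falls, and XBP1 carries the widest bar (SE 0.52).

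The count of 6 moved with the libraries used. It was 3 without siNC replicate 1 and 3 without siNC replicate 3, with 1 rise in each, and 9 without siTRAIP replicate 3, with 6 rises, P4HB, CALR and CANX being the added ones. With the replicate number as a block, HSPA5 and SYVN1 lost the call (adjusted p = 0.0717 and 0.0504), leaving 4. On the deposited RPKM scale, which divides by the total count, limma called no rise and 4 falls, ERN1, DNAJB9, SYVN1 and SDF2L1.

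The abundance of these genes spanned more than 3 orders of magnitude on the length-normalised RPKM scale. HSP90B1 was the most abundant, at a mean of 955 RPKM in siTRAIP and 877 RPKM in siNC, followed by HSPA5 at 441 and 419 RPKM, CALR at 430 and 419 RPKM and CANX at 275 and 266 RPKM. The proline isomerase PPIB (187 RPKM in siTRAIP, 195 RPKM in siNC) and the disulfide isomerase PDIA4 (116 and 122 RPKM) were the other genes above 100 RPKM. Of the sensors, PERK mRNA (EIF2AK3) stood at 4.88 RPKM in siTRAIP and 5.26 RPKM in siNC, ATF6 at 4.53 and 4.09 RPKM, and ERN1, the least abundant of the 31, at 0.54 and 0.83 RPKM. DNAJB9, a chaperone cofactor, was near the sensors at 5.33 RPKM in siTRAIP and 6.95 RPKM in siNC. HERPUD1, an ER membrane protein of the degradation complex, was next above ERN1 at 2.05 RPKM in siTRAIP and 2.46 RPKM in siNC.

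**Figure D2:**
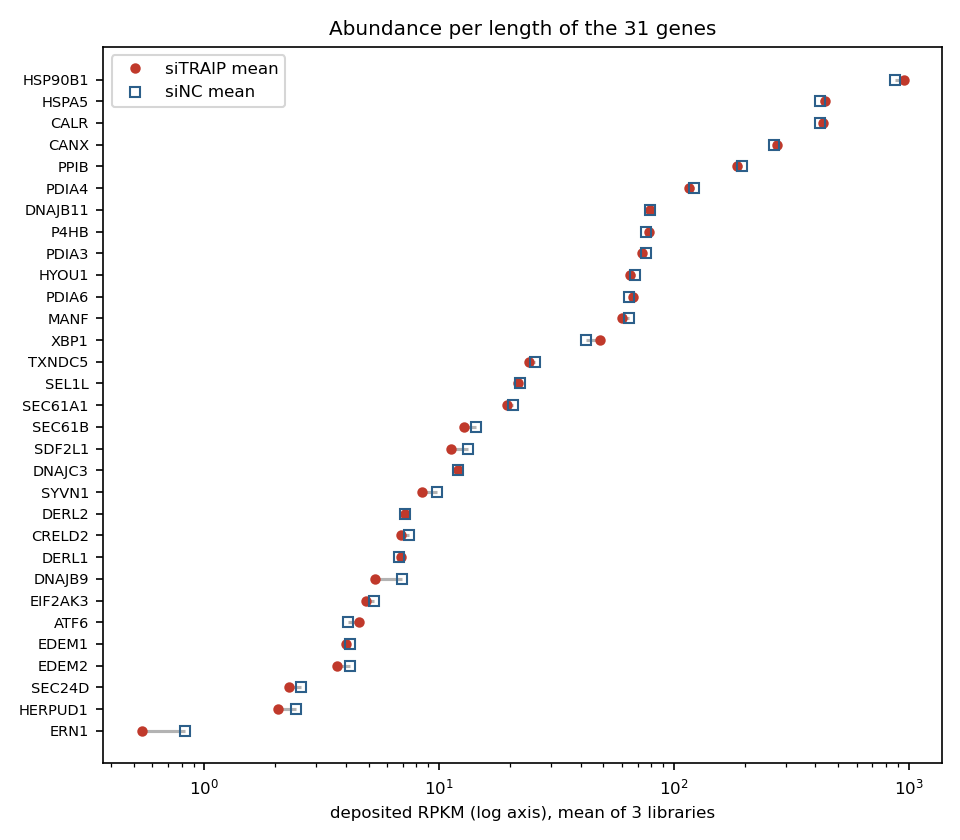
Deposited RPKM (log axis) of the 31 genes in siTRAIP (filled circles) and siNC (open squares), each the mean of 3 libraries, ordered by the mean over all 6. HSP90B1 is at the top (955 RPKM in siTRAIP, 877 RPKM in siNC) and ERN1 at the bottom (0.54 and 0.83 RPKM), and group means lie close together for most genes.

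Because a few transcripts were so abundant, the summed level of the set followed them. The 31 genes summed to 13310, 13025 and 13107 CPM in siTRAIP replicates 1 to 3, against 12005, 12446 and 12061 CPM in siNC replicates 1 to 3, so the groups did not overlap. The means were 13147 ± 147 CPM in siTRAIP and 12171 ± 240 CPM in siNC (SD, n = 3 each). HSP90B1 made up 55.9% of the difference of 976 CPM, HSPA5 16%, CANX 12.7% and CALR 7.9%. As a share of all gene counts the set held 1.28% to 1.29% in siTRAIP libraries and 1.23% to 1.26% in siNC libraries.

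Values by abundance were also taken over the whole table. Of 476 tested genes at 100 RPKM or more, 22.5% were called higher and 8.19% lower, with a median log2 fold change of 0.06. Of 3509 genes from 10 to 100 RPKM, 16.2% were called higher and 9.01% lower, with a median of 0.02. Of 14700 genes under 10 RPKM, 4.89% were called higher and 4.37% lower, with a median of -0.01. The 6 set genes at 100 RPKM or more had a median of 0.10, with 2 called higher, 4 fitted above 0 and 2 below. The 13 from 10 to 100 RPKM had a median of 0.007, with 0 called, 7 fitted above 0 and 6 below. The 12 under 10 RPKM had a median of -0.08, with 1 called higher and 3 lower, 4 fitted above 0 and 8 below. Whether abundance has a part in the values of the set was not tested.

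Among the Hsp70 and Hsp90 chaperones, HSP90B1, which encodes the ER Hsp90 paralogue GRP94, had the strongest rise in percent. Its level was 4613, 4473 and 4633 CPM in siTRAIP replicates 1 to 3, against 3902, 4156 and 4024 CPM in siNC replicates 1 to 3. Every siTRAIP library was above every siNC library. The log2 fold change of HSP90B1 was 0.18 (adjusted p = 0.00333 by edgeR, SE 0.04), a change of 13.5%, and the call was lost without siNC replicate 1 (adjusted p = 0.0556) and on both RPKM scales (log2 fold change 0.12, adjusted p = 0.156 and 0.151). Genes on the opposite strand share 4.82% of its exonic bases. The gene spans 103930107 to 103953645 on the plus strand of chromosome 12 (GRCh38).

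HSPA5, which encodes BiP, the ER Hsp70 that also holds the sensors inactive, stood at 1753, 1708 and 1825 CPM in siTRAIP, against 1579, 1613 and 1625 CPM in siNC. The groups did not overlap, with the narrowest gap between siTRAIP replicate 2 and siNC replicate 3. Its log2 fold change was 0.13 (adjusted p = 0.0313 by edgeR, SE 0.04). The HSPA5 call was the least stable of the 6. It was lost in 7 of the 14 alternatives: without any single siNC library (adjusted p = 0.0901 to 0.177), without siTRAIP replicate 1 (0.0601), with the replicate block (0.0717) and on both RPKM scales, where its log2 fold change was 0.07 (0.321 and 0.311). No other gene of the table shares its exons (chromosome 9, 125234853 to 125241330, minus strand).

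Of the cofactors of BiP, DNAJB9 passed the test. DNAJB9, an ER Hsp40-type cochaperone that binds BiP and represses IRE1, was at 14.4, 16.5 and 15.4 CPM in siTRAIP, against 17.9, 19.7 and 20.4 CPM in siNC. All siTRAIP libraries lay below all siNC libraries. DNAJB9 fell by 0.32 on the log2 scale (adjusted p = 0.00302 by edgeR, SE 0.07) and kept the call in all 14 alternatives, with log2 fold changes from -0.38 to -0.28. Opposite-strand genes share 6.45% of its exonic bases (chromosome 7, 108569568 to 108574850, plus strand). The other Hsp40-type genes were not called. DNAJB11 had a log2 fold change of 0.06 (adjusted p = 0.436 by edgeR, SE 0.04), and DNAJC3, whose product also inhibits PERK, one of 0.07 (adjusted p = 0.418 by edgeR, SE 0.05). CPM of the groups did not overlap for DNAJB11, without a call, and other genes overlap 23.2% of its exonic bases.

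SDF2L1, which partners DNAJB11, was at 12.2, 13.1 and 12.6 CPM in siTRAIP, against 14.5, 14.1 and 14.4 CPM in siNC. The groups did not overlap, yet the log2 fold change of -0.18 (SE 0.07) missed the threshold (edgeR adjusted p = 0.093). It passed with limma on log2(RPKM + 0.1) and log2(RPKM + 1), at -0.24 and -0.224 (adjusted p = 0.023 and 0.0243). HYOU1, a large Hsp70-like chaperone that exchanges the nucleotide of BiP, averaged 511 ± 30.4 CPM in siTRAIP and 515 ± 7.96 CPM in siNC (SD, n = 3 each). Its log2 fold change was -0.01 (adjusted p = 0.92 by edgeR, SE 0.04), and siTRAIP replicate 3, at 476 CPM, was the lowest library.

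**Figure D3:**
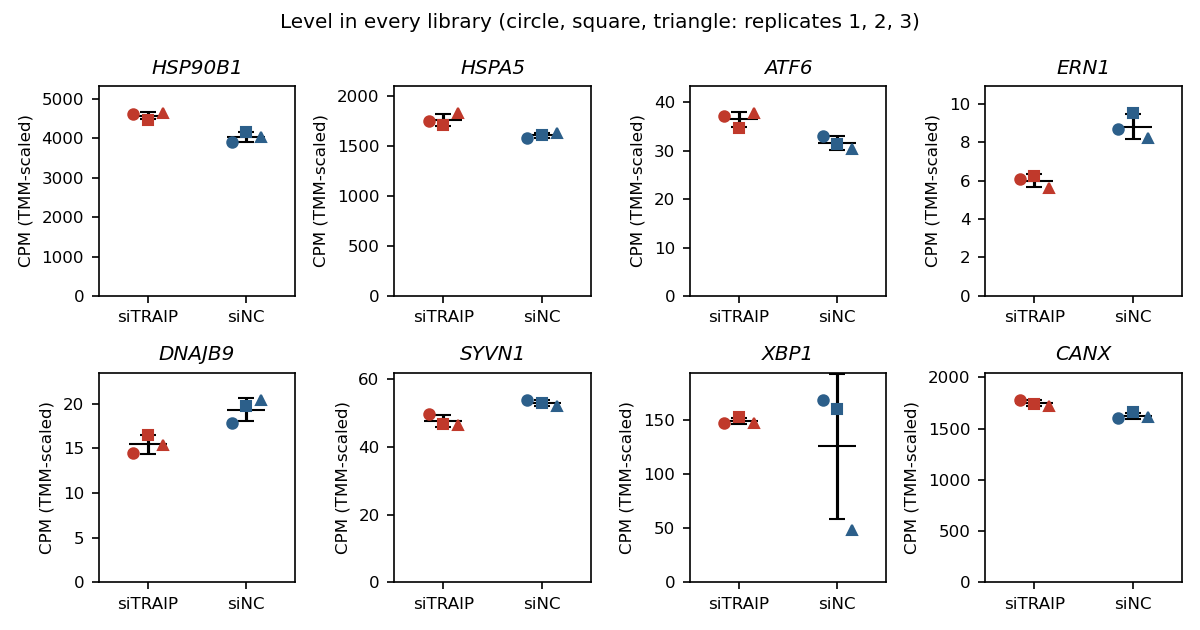
CPM of 8 genes in each library (y axis from 0), siTRAIP left and siNC right; circles, squares and triangles are replicates 1, 2 and 3, and the horizontal line and bar are the mean and SD. The groups do not overlap for HSP90B1, HSPA5, ATF6, ERN1, DNAJB9, SYVN1 and CANX, while in XBP1 siNC replicate 3 (48.7 CPM) lies far below the other 5 libraries.

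The lectin chaperones calnexin and calreticulin, which retain glycoproteins until they fold, were not called. CANX, the calnexin gene, was at 1781, 1743 and 1725 CPM in siTRAIP, against 1603, 1662 and 1612 CPM in siNC. Its groups did not overlap, and its log2 fold change was 0.11 (adjusted p = 0.0853 by edgeR, SE 0.04). CALR, the calreticulin gene, was at 1290, 1203 and 1081 CPM in siTRAIP, against 1071, 1174 and 1099 CPM in siNC, and siTRAIP replicate 3 lay within the siNC range. Its log2 fold change was 0.10 (adjusted p = 0.318 by edgeR, SE 0.06). Without siTRAIP replicate 3 both passed, CANX at 0.12 (adjusted p = 0.00994) and CALR at 0.16 (adjusted p = 0.004). Opposite-strand genes share 9.95% of the exonic bases of CALR and 2.41% of those of CANX.

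None of the 6 isomerase genes was called, and their fitted log2 fold changes ran from -0.01 to 0.12. PDIA6, a disulfide isomerase that also damps IRE1, was at 292, 275 and 278 CPM in siTRAIP, against 241, 280 and 258 CPM in siNC, which overlapped. Its log2 fold change was 0.12 (adjusted p = 0.141 by edgeR, SE 0.05), it passed without siNC replicate 2 (adjusted p = 0.0483), and an opposite-strand gene shares 25.2% of its exonic bases. P4HB, the founding disulfide isomerase gene, had a log2 fold change of 0.10 (adjusted p = 0.15 by edgeR, SE 0.04), and 0.14 without siTRAIP replicate 3 (adjusted p = 0.00365). PDIA3, which works with calnexin and calreticulin, PDIA4 and PPIB, a proline isomerase of the ER, had log2 fold changes of 0.01, -0.01 and -0.004 (SE 0.05, 0.04 and 0.04). TXNDC5 had one of -0.01 (SE 0.07) and is uncertain, since a readthrough gene on the same strand shares 60.6% of its exonic bases. Opposite-strand exons share 27.2% of those of PPIB and 18.9% of those of PDIA3.

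The secreted stress proteins MANF and CRELD2, both known targets of the unfolded protein response, were not called either. MANF averaged 129 ± 6.35 CPM in siTRAIP and 133 ± 1.91 CPM in siNC, and CRELD2 36.1 ± 0.468 CPM in siTRAIP and 37.5 ± 1.42 CPM in siNC (SD, n = 3 each). Their log2 fold changes were -0.04 (adjusted p = 0.61 by edgeR, SE 0.04) and -0.05 (adjusted p = 0.571 by edgeR, SE 0.05), and the groups overlapped in each.

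Of the sensor genes, ERN1 fell, ATF6 rose and EIF2AK3 was not called. ERN1, the gene of the kinase and endoribonuclease IRE1, was at 6.08, 6.26 and 5.61 CPM in siTRAIP, against 8.67, 9.5 and 8.24 CPM in siNC. All siTRAIP libraries lay below all siNC libraries, and the fall was the largest of the 31 genes, 32.2%. Its log2 fold change of -0.56 (adjusted p = 1.54e-04 by edgeR, SE 0.09) passed in all 14 alternatives. It ran from -0.61 to -0.506 in those on counts and log2(RPKM + 0.1), and was -0.25 on log2(RPKM + 1), where the added 1 exceeds the level of the gene. No other gene of the table shares its exons (chromosome 17, 64039142 to 64130819, minus strand).

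ATF6, whose product is cut in the Golgi to release a transcription factor, was at 37.1, 34.8 and 37.7 CPM in siTRAIP, against 33.1, 31.5 and 30.3 CPM in siNC. The groups did not overlap. The log2 fold change was 0.21 (adjusted p = 0.0114 by edgeR, SE 0.05). Leaving out siNC replicate 2 (adjusted p = 0.058) or siNC replicate 3 (0.0794) ended the ATF6 call, as did the RPKM scales with 0.1 and 1 added (log2 fold change 0.14 and 0.12, adjusted p = 0.165 and 0.172). EIF2AK3, the PERK gene, was at 26.6, 26.1 and 28.6 CPM in siTRAIP, against 29.1, 27.9 and 27 CPM in siNC, with a log2 fold change of -0.05 (adjusted p = 0.693 by edgeR, SE 0.06). ATF6 shares no exonic base with another gene of the table (chromosome 1, 161766294 to 161964070, plus strand), and opposite-strand genes share 15.1% of those of EIF2AK3.

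XBP1 turned on a single control library. Its level was 148, 153 and 147 CPM in siTRAIP replicates 1 to 3, against 169, 160 and 48.7 CPM in siNC replicates 1 to 3. The siNC replicate 3 value rests on 2907 counts and was 0.296 times the mean of the other siNC libraries, while for the other 30 genes that ratio lay between 0.827 (TXNDC5) and 1.09 (DNAJB9). With all libraries the XBP1 log2 fold change was 0.25 (adjusted p = 0.843 by edgeR, SE 0.52). Without siNC replicate 3 it was -0.14 and did not pass either (adjusted p = 0.0652), so its sign depends on that library. CCDC117, a neighbouring gene on the opposite strand, was at 60.8 CPM in siNC replicate 3, against 60.3 and 58.6 CPM in siNC replicates 1 and 2. Counts per gene do not separate spliced from unspliced XBP1 mRNA, so the activity of IRE1 is not measured here.

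Among the genes of ER-associated degradation, SYVN1 fell and the others were not called. SYVN1 encodes HRD1, the ubiquitin ligase of the ER membrane, and was at 49.7, 46.7 and 46.5 CPM in siTRAIP, against 53.8, 52.9 and 51.9 CPM in siNC. The groups did not overlap. The log2 fold change was -0.15 (adjusted p = 0.0335 by edgeR, SE 0.05). The call was lost without any single siNC library (adjusted p = 0.0565 to 0.141), without siTRAIP replicate 2 (0.112) and with the replicate block (0.0504), and 8.93% of its exonic bases are shared with other genes. SEL1L, the partner that HRD1 needs, averaged 212 ± 3.65 CPM in siTRAIP and 208 ± 9.35 CPM in siNC (SD, n = 3 each), with a log2 fold change of 0.03 (adjusted p = 0.767 by edgeR, SE 0.04).

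HERPUD1, at 11.2, 10.2 and 11 CPM in siTRAIP, against 11.8, 12.7 and 12.9 CPM in siNC, had groups that did not overlap and a log2 fold change of -0.20 (adjusted p = 0.0826 by edgeR, SE 0.08). The derlins, membrane proteins of the retrotranslocation channel, had log2 fold changes of 0.10 for DERL1 (adjusted p = 0.21 by edgeR, SE 0.05) and 0.06 for DERL2 (adjusted p = 0.522 by edgeR, SE 0.05). EDEM1 and EDEM2, which trim mannose from misfolded glycoproteins, had values of 0.002 (SE 0.06) and -0.12 (SE 0.09). In the DERL1 and EDEM2 genes the groups did not overlap, without a call. The translocon genes SEC61A1 and SEC61B and the COPII coat gene SEC24D had fitted log2 fold changes of -0.02, -0.11 and -0.11 (SE 0.04, 0.07 and 0.06) and edgeR adjusted p from 0.305 to 0.839.

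**Figure D4:**
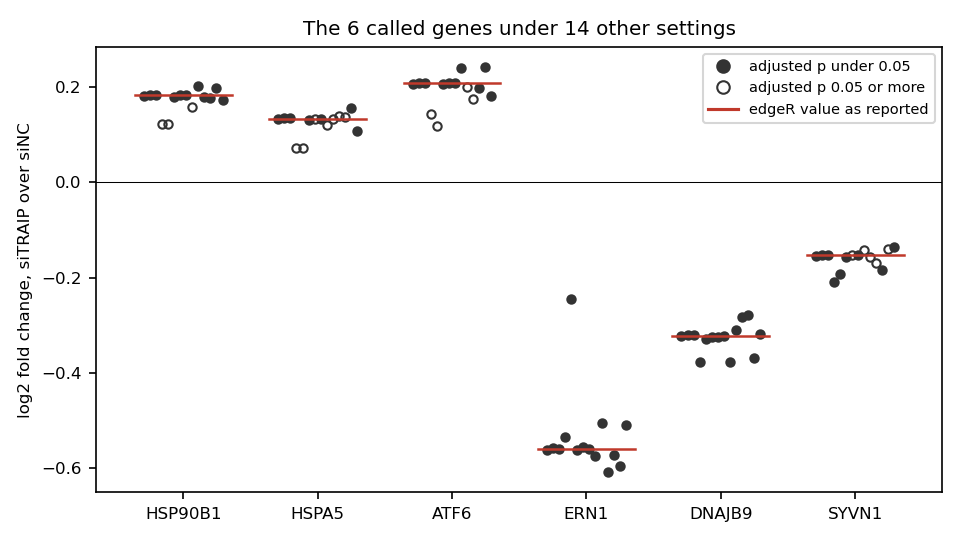
Log2 fold change of the 6 called genes under the 14 alternative settings (points), with the reported edgeR value as a line; filled points have an adjusted p under 0.05. ERN1 and DNAJB9 are filled throughout, HSPA5 has the most open points (7), and no point crosses 0.

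Set beside the promoter elements, the 7 genes with ERSE had a median log2 fold change of 0.12, with 6 fitted above 0 and 2 called, HSPA5 and HSP90B1. The fitted value below 0 was that of CRELD2. The 3 genes with ERSE-II, HYOU1, SDF2L1 and HERPUD1, had a median of -0.18, with none fitted above 0 and none called. The 18 genes with neither had a median of -0.01 and ran from -0.56 (ERN1) to 0.21 (ATF6), with 7 fitted above 0 and 4 called. Of all 18685 genes tested, 12.8% were called and 9261 were fitted above 0. Without siNC replicate 3 the medians of these classes were 0.10, -0.18 and -0.02, and 5 of the 7 ERSE genes were above 0. Without siTRAIP replicate 3 they were 0.12, -0.18 and -0.01, with 1 of the 3 ERSE-II genes and 9 of the 18 genes with neither above 0. On log2(RPKM + 0.1) they were 0.06, -0.24 and -0.07, against -0.06 for all genes, with 6, 0 and 3 genes above 0. These medians describe small groups, and no test was made between them. The most abundant genes of the set, HSP90B1, HSPA5, CALR and CANX, all held ERSE. PPIB and PDIA4, the other genes above 100 RPKM, held neither element and had log2 fold changes of -0.004 and -0.01. Over the whole table, 22.5% of the 476 tested genes at 100 RPKM or more were called higher. The part of abundance in these medians was not tested.

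**Figure D5:**
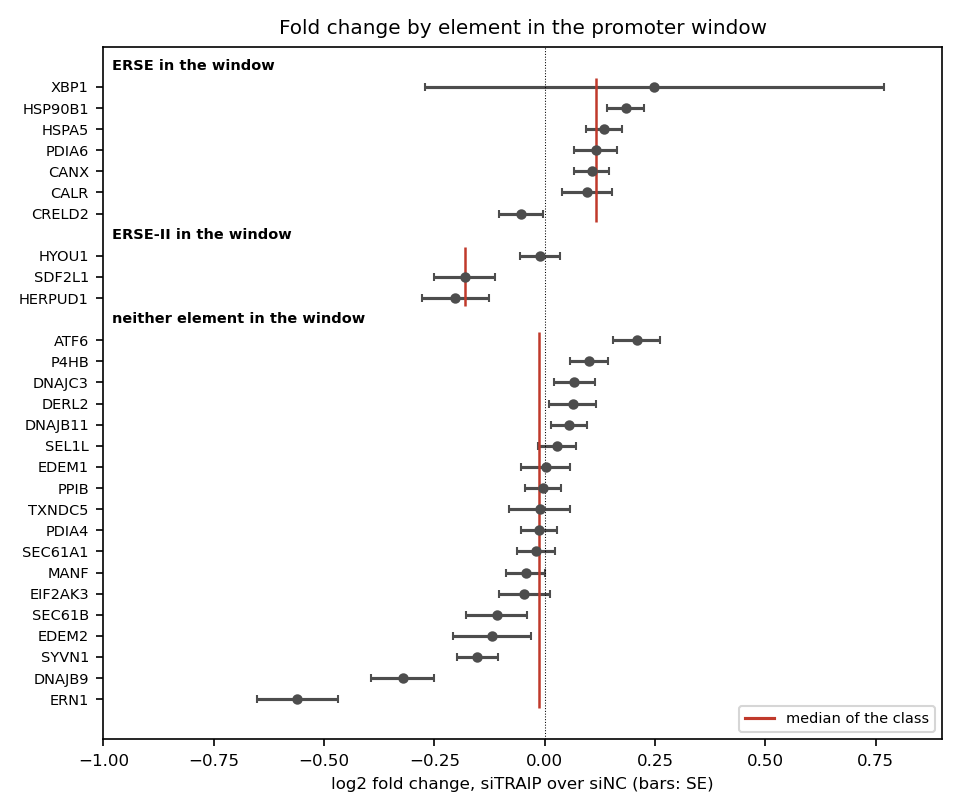
Log2 fold change (siTRAIP over siNC, bars: SE) of the 28 genes with a RefSeq promoter window, by the element found in it; red lines are class medians. The ERSE class has its median at 0.12, the ERSE-II class at -0.18 and the remaining 18 genes at -0.01.

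Other genes of the table with these elements had medians of the opposite sign to those of the set, for ERSE and for ERSE-II. These medians also describe small groups, were not taken under other settings, and were not tested against those of the set. ERSE occurred in windows of 18 further genes, of which 9 were found by name among the tested genes, with a median log2 fold change of -0.07. Synonyms were not searched here, so a further gene held under another name was left out. SERP1, a translocon-associated stress protein gene, fell by 0.31 on the log2 scale (adjusted p = 5.20e-05 by edgeR, SE 0.05), and the zinc finger gene ZNF17 had a log2 fold change of 0.55 (adjusted p = 0.0234 by edgeR, SE 0.16). Of the remaining 7, which include ERO1B, FICD and ALG12, none was called. ALG12 overlaps CRELD2 on the opposite strand, and whether their ERSE matches are the same element was not examined. ERSE-II occurred in 16 further genes, of which 11 were found by name among the tested genes, with a median of 0.08 and NAV2 called, at 0.28 (adjusted p = 1.67e-04 by edgeR, SE 0.05). SERP1, ZNF17 and NAV2 were named after their values were seen.

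Related ER genes outside the 31, in lists of 133 names of which 132 were found and 129 tested, gave 13 rises and 9 falls (17.1% called, against 12.8% of all genes) and a median log2 fold change of -0.01. The 22 calls became 16 without siNC replicate 1 and 28 without siTRAIP replicate 3, the lowest and highest counts over the alternatives. Of 27 other folding and redox enzymes, 5 rose and 2 fell (median -0.01). TMX1, a membrane thioredoxin, was the strongest fall, at 58.2 ± 2 CPM in siTRAIP and 88 ± 1.3 CPM in siNC (SD, n = 3 each), a log2 fold change of -0.60 (adjusted p = 2.77e-09 by edgeR, SE 0.04). TMX3, a membrane thioredoxin too, rose by 0.33 (SE 0.05), the ER peroxiredoxin PRDX4 by 0.29 (SE 0.05) and TXNDC12, another thioredoxin-fold enzyme, by 0.27 (SE 0.05; adjusted p = 0.0502 on log2(RPKM + 1)). TMX1 and TMX3, of the same enzyme family, thus moved in opposite directions.

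Of 22 genes of translocation and signal peptide cleavage, 4 rose and 3 fell (median 0.01). TRAM1, a protein of the translocon, fell by 0.43 (adjusted p = 2.25e-05 by edgeR, SE 0.06). The signal recognition particle genes SRP68 and SRP19 rose by 0.15 (SE 0.04) and 0.16 (SE 0.04), and the signal peptidase subunit SEC11A by 0.23 (SE 0.06). These calls were lost on both RPKM scales and in 2 to 5 of the 6 fits with a library left out. Same-strand genes share 20.2% of the exonic bases of SRP19. Other ER-associated degradation genes gave 1 fall in 23 tested (median -0.02), SELENOS, at -0.17 (adjusted p = 0.0133 by edgeR, SE 0.04, and 0.0819 without siNC replicate 1). Without siTRAIP replicate 3 this list gave 3 rises and 3 falls, and with DESeq2 0 rises and 2 falls. The oligosaccharyltransferase, which attaches glycans to nascent chains, gave 1 fall in 12, RPN1, at 583 ± 22.9 CPM in siTRAIP and 667 ± 18.9 CPM in siNC (SD, n = 3 each; log2 fold change -0.20, adjusted p = 0.00285 by edgeR, SE 0.04). Of 23 COPII and retrieval genes (median -0.02), the coat gene SEC24C rose by 0.18 (SE 0.04), although an opposite-strand gene shares 42.9% of its exonic bases, and TFG fell by 0.21 (SE 0.05). The SEC24C call was lost on both RPKM scales (adjusted p = 0.0925 and 0.0898).

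Among 12 tested regulators of the response (median -0.01), 3 rose and none fell (25% called, against 12.8% of all genes). Their lowest fitted log2 fold change was -0.34, without a call. A fall of 1 regulator was called on both RPKM scales, with the filter on CPM and without a low-count filter. The same count was found without siNC replicate 2 and without siTRAIP replicate 1. NFE2L1, an ER-anchored transcription factor that controls proteasome genes, was at 525 ± 10 CPM in siTRAIP and 379 ± 8.84 CPM in siNC (SD, n = 3 each), a log2 fold change of 0.47 (adjusted p = 2.10e-08 by edgeR, SE 0.04). TRAF2, an adaptor that binds activated IRE1, rose by 0.41 (adjusted p = 1.04e-04 by edgeR, SE 0.07), and CREB3L2, an ER-resident factor related to ATF6, by 0.24 (adjusted p = 0.0012 by edgeR, SE 0.05), the last not on the RPKM scales (adjusted p = 0.0882 and 0.0904). Of 10 targets of the PERK branch (median 0.005), none rose and STC2, a secreted glycoprotein gene, fell by 0.19 (adjusted p = 0.00355 by edgeR, SE 0.04). ATF4 itself averaged 225 ± 8.97 CPM in siTRAIP and 223 ± 12.6 CPM in siNC (SD, n = 3 each), a log2 fold change of 0.01 (adjusted p = 0.894 by edgeR, SE 0.05). DDIT3, the gene of the stress factor CHOP, had one of -0.04 (SE 0.06), and opposite-strand exons of MARS share 28% of its exonic bases. PPP1R15A, which restarts translation, was at 470 ± 20.2 CPM in siTRAIP and 430 ± 12.5 CPM in siNC (SD, n = 3 each), without overlap, and missed the threshold (log2 fold change 0.13, adjusted p = 0.0577 by edgeR, SE 0.04), which it passed without siTRAIP replicate 3 (adjusted p = 0.00168) and without a low-count filter (0.0448). TRIB3, ATF3 and CHAC1 were at or under 6.12 CPM in the mean of either group and not called (edgeR adjusted p = 0.268, 0.848 and 0.811).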

How the data were processed

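RNA from 3 siTRAIP and 3 siNC libraries was analysed; groups and replicate numbers come from the sample titles. Libraries were made from TRIzol-extracted RNA with a kit for stranded mRNA, per the labels' protocols. The deposited counts are whole numbers of reads per gene without normalization. Per the submitters' processing notes, Trimmomatic 0.36, featureCounts, Subread 1.5.1 and build GRCh38 were used; of the aligner, the annotation release and the strand setting nothing is stated in the sources used here, and genes that share exons with another gene are therefore uncertain. Even numbers made up 70.2% of counts from 1 to 10 and 50.8% of large counts, so both reads of a pair may have been counted and totals may exceed fragments. RPKM values deposited by the authors match count divided by gene length and library total, to a relative error of at most 1.3e-06.

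Counts were tested with edgeR 4.0.16 in R 4.3.3 (filterByExpr, TMM factors, quasi-likelihood fit with robust=TRUE, 2-sided F-test, Benjamini-Hochberg adjustment over 18685 genes, threshold 0.05). "Called", "rose" and "fell" mean past that threshold. The procedure was first run on simulated counts. These had the same dispersion for every gene and no library that departs from its group, so they do not show how it handles either. The SE is the log2 fold change divided by the square root of F, and CPM uses TMM-scaled totals (factors 0.971 to 0.987 in siTRAIP and 1.01 to 1.03 in siNC). The 31 genes, the related lists and the promoter comparison were chosen with earlier results of these data known. All 31 genes are named, with TRAIP, up to 4 called genes with the smallest adjusted p of each related list, and 6 PERK branch targets. In the lists, UFD1 and SELENOS were matched through RefSeq synonyms, and 1 name was not matched. Alternatives used DESeq2 1.42.0, RLE factors, other count filters, robust=FALSE, a replicate block, each library left out, and limma 3.58.1 on log2(RPKM + 0.1) and log2(RPKM + 1). Exon overlaps come from the coordinates of the deposited table.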

Additional observations from a re-analysis of the deposited data

How the results depend on the processing

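DESeq2, RLE factors, no low-count filter, a CPM of at least 1 in 3 libraries and robust=FALSE each called 6 of the 31 genes, with 3 rises and 3 falls. With limma on log2(RPKM + 0.1) and log2(RPKM + 1), 1521 and 1517 genes were called in all, against 2393 with edgeR, 0 of the 31 rose, and the median of the set was -0.065 and -0.064, against -0.058 and -0.032 for all genes; the RPKM values leave out the TMM factors. There the log2 fold changes of genes not called by edgeR changed sign for DNAJB11 (-0.0049 on both scales), PDIA3 (-0.056 and -0.055), SEL1L (-0.032 and -0.031), EDEM1 (-0.060 and -0.049), DERL2 (-0.0027 and -0.0021) and ATF4 (-0.044 on both). Without a low-count filter EDEM1 was at -0.00023. With 1 library left out, 1480 to 2622 genes were called in all, 3 to 9 of the 31, 1 to 6 as higher and 2 to 3 as lower. Log2 fold changes that changed sign then ran from -0.14 to 0.52 for XBP1, -0.053 to 0.055 for PDIA3, -0.032 to 0.011 for PDIA4, -0.012 to 0.051 for SEL1L, -0.034 to 0.020 for EDEM1, -0.041 to 0.037 for HYOU1, -0.047 to 0.0049 for SEC61A1, -0.101 to 0.057 for TXNDC5, -0.022 to 0.022 for PPIB, -0.028 to 0.053 for ATF4 and -0.099 to 0.028 for DDIT3.

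Of 84 values of the 6 called genes under 14 alternatives, 65 kept the call, 19 lost it and 0 changed sign. Of 350 values of the other 25 genes, 6 gained a call and 26 changed sign, in 11 genes. Equal replicate numbers are not said to mark pairs, and the correlations between deviations of libraries with 1 number were -0.00757, -0.0177 and 0.00138. With the replicate block 2145 genes were called, 4 of them in the set (2 rises, 2 falls), and the TRAIP log2 fold change was -1.11. The number of libraries, 3 a group, limits the precision, and a gene without a call is not shown to be unchanged.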

Other observations

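Genes in which a single library departed from its own group were few. Of 6433 genes with a mean of at least 20 CPM, 1 lay more than 2-fold below the nearest library of the group in siTRAIP replicate 3, 6 in siNC replicate 3 and 2 in siNC replicate 1, and 0 in the other 3 libraries. A further 4 lay more than 2-fold above it in siTRAIP replicate 3. XBP1 had the widest gap of the low ones, at -1.71 on the log2 scale, and LSM3, an RNA-binding protein gene of the Sm-like family, the next in siNC replicate 3, at -1.50. LSM3 was at 174, 174 and 177 CPM in siTRAIP, against 156, 156 and 54.9 CPM in siNC, and was not called (log2 fold change 0.52, SE 0.45, edgeR adjusted p = 0.591). The other 4 genes low in siNC replicate 3 were the mitochondrial transfer RNA genes MT-TC, MT-TY and MT-TN and the gene listed as AC005037.3. What lowered the XBP1 count in that library was not tested. This list was drawn up after the values were seen.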
